A study of Homo sapiens with 6 samples.

Results

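The 10 genes described here, ETS1, ETS2, ELF1, ELF2, ELF3, ELF4, EHF, ELK3, ETV1 and FLI1, encode transcription factors of the ETS family. They were chosen by name, and every probe set whose annotation gave one of these symbols and no other was taken, which gave 35 of the 54675 probe sets of the array. Of these, 23 probe sets of 8 genes lay over a detection level of 4 (log2) in at least 3 of the 6 arrays and were tested, among 23785 tested in all. The 12 that were not tested included every probe set of ELF3 and FLI1.

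The cells were MDA-MB-231, an established line from a breast carcinoma with basal and mesenchymal traits, transduced with a lentivirus for eGFP alone (GFP control, 3 arrays) or for GATA3 and eGFP (3 arrays), and sorted for GFP. Both groups thus carried the eGFP lentivirus, and RNA was collected 2 days after seeding. The labels name neither the promoter of the virus nor a clone, and do not say that the 3 replicates of a group were separate cultures, so the spread behind every p-value is that of these arrays and may be technical only. Expression values were made with GCRMA and are taken to be log2, a scale on which a difference of 1 is a 2-fold difference. The level of one probe set cannot be set against that of another. Compared between the groups are therefore single probe sets, within-array differences of gene pairs, and sums over marker lists.

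ETS factors share a DNA-binding domain that recognises a core of GGA with flanking bases. Many of them are phosphorylated by MAP kinases downstream of RAS, which changes their activity, and they fall into subfamilies with different roles. ETS1 and ETS2 are the founding members. ETV1, with ETV4 and ETV5, forms the PEA3 group, and ELK3, with ELK1 and ELK4, forms the ternary complex factors, which bind DNA together with SRF. ELF1, ELF2 and ELF4 form a group known best from blood cells, EHF and ELF3 belong to the group of epithelial ETS factors, and FLI1 is a factor of endothelial and blood cells.

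The introduced gene read against its label. GATA3 (209604_s_at) was lower in the arrays labelled GATA3, at 7.73 ± 0.35 against 9.39 ± 0.06 in the GFP control (SD, n = 3 each), and whether its probe sets read the introduced sequence is not known. All directions below compare arrays labelled GATA3 with GFP control arrays. All 8 genes listed as markers of the MDA-MB-231 line, such as VIM and CD44, were over the detection level on every array. Of the markers with a probe set, 0 of 4 leukocyte and 0 of 5 endothelial ones were over it on any. Of 5 fibroblast markers, COL1A1 and PDGFRB were over it on every array and the other 3 on none. Some markers moved with the groups. In the MDA-MB-231 list the keratin genes KRT18 (0.52, adjusted p 0.000503) and KRT8 (0.60, adjusted p 0.00908) were higher in the arrays labelled GATA3, as was EGFR (0.33, adjusted p 0.0278). VIM (-0.32, adjusted p 0.0158) and MSN (-0.24, adjusted p 0.0342) were lower, and 3 of 8 did not pass. The list thus holds keratin genes beside mesenchymal ones and is not read as a single cell state. Of 5 luminal markers, KRT19 was higher (1.08, adjusted p 0.00110), ESR1 lay close to the detection level, and PGR, FOXA1 and TFF1 were over it on no array. The summed log2 value of the luminal list was 24.0 to 24.2 in the GFP control and 24.9 to 25.2 in the arrays labelled GATA3. That of the MDA-MB-231 list was 107.8 to 108.5 and 108.7 to 109.9. These sums rest on few genes and do not show that a list moved as a whole. In the luminal list KRT19 differed by 1.08, ESR1 by 0.15, TFF1 by -0.34, and PGR and FOXA1 by 0. Of the MDA-MB-231 list genes that did not pass, AXL differed by 0.43, CAV1 by -0.22 and CD44 by -0.07. The part of these shifts in the ETS results was not tested. GATA3 replicate 3 stood somewhat apart. It correlated with another array of its group at as low as 0.984 over the tested probe sets, its 75th percentile was 7.78 against 7.97 to 8.04 on the others, and its raw file alone carries a later date in its name. Among the 23 tested ETS probe sets it was the lowest array of its group in 14. Values without it are given beside the results of the 10 genes, and as counts for the gene lists.

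ETS genes were mostly lower in the arrays labelled GATA3. Of the 23 tested probe sets, 13 passed the threshold as lower, 2 as higher and 8 did not pass (limma, adjusted p under 0.05). The lower ones made up 56.5% of the tested ETS probe sets, against 14.0% of all tested probe sets, and the higher ones 8.70%, against 11.3%. With 1 probe set per gene, the brightest, EHF, ETV1, ETS1, ELK3 and ELF1 were lower, ELF4 was higher, and ETS2 and ELF2 did not pass, where 14.5% of all genes were lower and 14.8% higher. The median log2 difference was -0.94 over the tested ETS probe sets and -0.05 over all tested probe sets. In 19 of the 23 the arrays of the groups did not overlap and those labelled GATA3 were lower, and in 2 they did not overlap and were higher, against 28.0% and 18.0% of all tested probe sets. Of the 13 that passed as lower, 10 were at least 2-fold lower, and 3.43% of all tested probe sets were. The counts of 19, 13 and 10 all hold 2 EHF probe sets that were tested only because the control arrays were high. These 2 had to differ and could not overlap, and the median of -0.94 includes them. Among the 21 with at least 1 array of each group over the detection level, 11 were lower (52.4%), 8 of them at least 2-fold, and 2 higher. These genes were chosen with results of the data known, so the counts describe them and do not test them. In bulk RNA of this kind, fewer cells that express a gene and less RNA per cell cannot be told apart. Without GATA3 replicate 3 the counts were 14 lower and 2 higher probe sets, and the same number of genes in each direction as with it. The number of higher probe sets was 0 after removal of any 1 GFP control array and 1 without GATA3 replicate 1 or 2. Some lower calls were also lost when single arrays were left out. These were EHF 232361_s_at, ETV1 217061_s_at, ELF1 212418_at and ETS1 214447_at.

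**Figure D1:**
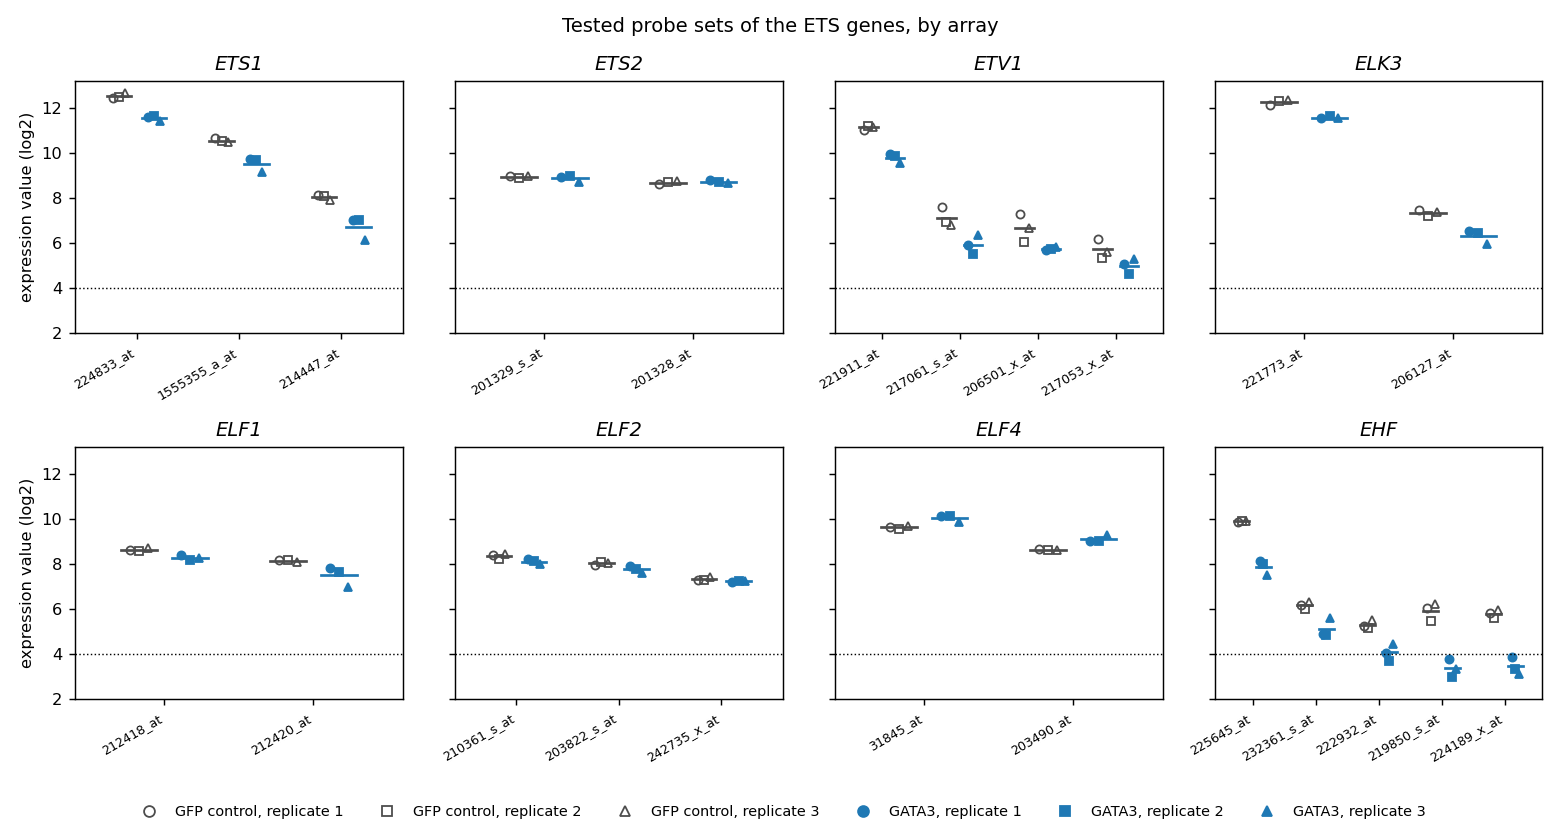
Expression value (log2) of each tested ETS probe set on each array, with 1 panel per gene. Open grey symbols are the GFP control and filled blue symbols the arrays labelled GATA3, the symbol gives the replicate, bars are group means (n = 3) and the dotted line is the detection level of 4. The groups stand apart in every probe set drawn except the 2 of ETS2, where they overlap. For the 2 EHF probe sets with no array labelled GATA3 over the detection level, this was built into their selection. Of all tested probe sets, 28.0% stood apart with the arrays labelled GATA3 lower and 18.0% with them higher.

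**Figure D2:**
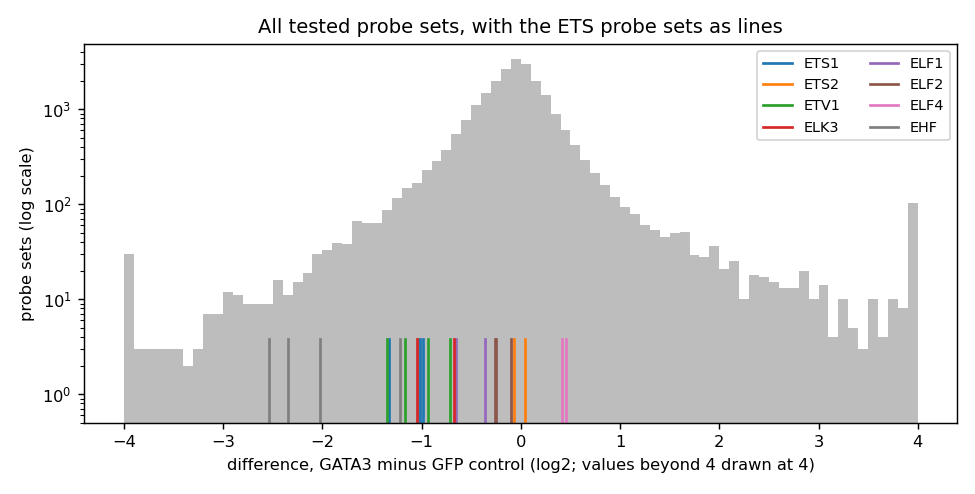
Number of tested probe sets (log scale) by difference between the groups (log2, GATA3 minus GFP control), with the 23 ETS probe sets as coloured lines. The lowest 2 lines are EHF probe sets with no array labelled GATA3 over the detection level, so their place is not a measured size. The lines of ETS2 lie near 0, and those of ELF4 lie at 0.42 and 0.45.

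Among the epithelial ETS factors, EHF had the largest difference of the 10 genes by the brightest probe set. EHF is known from glandular and other epithelia. Its brightest probe set (225645_at) read 9.87, 9.90 and 9.93 in the GFP control and 8.11, 7.99 and 7.53 in the arrays labelled GATA3. Every array labelled GATA3 was thus lower than every control array by more than 1 log2 unit. The difference was -2.02 (SE 0.16, 95% interval -2.42 to -1.62), or 4.06-fold lower (adjusted p 0.000713). Leaving out GATA3 replicate 3 gave -1.85 and an adjusted p of 0.000231.

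The other tested probe sets of EHF were lower as well. On 219850_s_at the control arrays read 6.04, 5.49 and 6.23 and those labelled GATA3 3.79, 3.00 and 3.36, and on 224189_x_at they read 5.81, 5.62 and 5.97 against 3.89, 3.35 and 3.12. Both pairs of groups stood apart, and no array labelled GATA3 reached the detection level, which gives at least 3.79-fold and at least 3.49-fold lower (adjusted p 0.00221 and 0.00123). These 2 probe sets entered the test only through the control arrays, so a difference was built into their selection. Their adjusted p-values without GATA3 replicate 3 were 0.00875 and 0.00308. Probe set 222932_at read 5.23, 5.17 and 5.50 against 4.07, 3.71 and 4.47, a difference of -1.22 (adjusted p 0.0110), with 1 array, GATA3 replicate 2, below detection, and without GATA3 replicate 3 it was -1.41 (adjusted p 0.00531). On 232361_s_at the values were 6.18, 5.99 and 6.32 against 4.90, 4.87 and 5.61, and here GATA3 replicate 3 was the highest of its group. That difference was -1.04 (adjusted p 0.0248), and without replicate 3 it was -1.28 (adjusted p 0.00277), while leaving out any 1 of the 5 other arrays gave an adjusted p of 0.0631 to 0.0927. The last probe set of EHF (232360_at) lay between 2.24 and 2.95 on all arrays and was not tested.

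ELF3, the other epithelial factor of the set, was not detected. Its 3 probe sets read between 2.16 and 2.64 on every array of both groups, most of them repeating 1 value, so no difference can be read for it in either direction. ELF5, the neighbouring gene of EHF on chromosome 11 and a factor of mammary alveolar cells, was likewise under the detection level, with a highest value of 2.16. SPDEF, an ETS factor of luminal and secretory epithelia, had a brightest probe set (214403_x_at) at 7.63 ± 0.05 and 7.68 ± 0.05 (SD, n = 3 each), a difference of 0.06 with an adjusted p of 0.559. That probe set repeated the value 7.65 on 4 of the 6 arrays. The dimmer probe sets of SPDEF differed by -0.18 (214404_x_at, adjusted p 0.260) and by -0.54 (220192_x_at, adjusted p 0.0889), the latter with no overlap between the groups, and neither passed. Whether EHF and SPDEF differ in their change was not tested.

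Of the founding pair, ETS1 was lower and ETS2 did not pass. ETS1 is known in invasive carcinoma cells and stroma as an activator of protease genes. Its probe set 224833_at read 12.45, 12.51 and 12.65 in the GFP control and 11.60, 11.64 and 11.42 in the arrays labelled GATA3. The control arrays all lay above 12 and the others all below, a difference of -0.98 (SE 0.08, adjusted p 0.000786), or 1.97-fold lower. On 1555355_a_at the values were 10.66, 10.52 and 10.47 against 9.75, 9.69 and 9.18, which is 2.02-fold lower (adjusted p 0.00888). The third probe set, 214447_at, read 8.16, 8.08 and 7.91 against 7.02, 7.03 and 6.14, a difference of -1.33 (SE 0.26, adjusted p 0.0177). On each ETS1 probe set GATA3 replicate 3 was the lowest array. Without it the differences were -0.92 (adjusted p 0.00184) on 224833_at, -0.83 (adjusted p 0.00246) on 1555355_a_at and -1.03 (adjusted p 0.00275) on 214447_at. The call of 214447_at was lost when any 1 control array was left out, at adjusted p-values of 0.0574 to 0.0702.

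ETS2, the closest relative of ETS1, read 8.99, 8.88 and 8.98 in the GFP control and 8.96, 8.99 and 8.70 in the arrays labelled GATA3 on 201329_s_at. On 201328_at it read 8.63, 8.70 and 8.76 against 8.82, 8.72 and 8.69. The groups overlapped in both. The differences were -0.07 (95% interval -0.30 to 0.17, adjusted p 0.625) and 0.04 (95% interval -0.12 to 0.21, adjusted p 0.643), and without GATA3 replicate 3 they were 0.02 and 0.07 (adjusted p 0.771 and 0.438). These intervals do not reach a 2-fold difference in either direction, and the remaining probe set (241193_at) stayed at the floor of 2.16. The difference between ETS1 and ETS2 within each array was lower by 0.91 in the arrays labelled GATA3 (two-sided exact permutation p = 0.1, the smallest that 3 arrays against 3 allow, and 0.15 adjusted over the 3 pairs of genes compared this way).

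FLI1 lies next to ETS1 on chromosome 11. Its 6 probe sets read between 2.16 and 2.45 on every array, which is under the detection level in both groups. ERG, the neighbour of ETS2 on chromosome 21 and like FLI1 a factor of endothelial cells, had a highest value of 2.20. In each of the neighbouring pairs ETS1 and FLI1, ETS2 and ERG, and EHF and ELF5, 1 gene therefore had probe sets over the detection level and the other had none.

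ETV1, a PEA3-group factor known for its part in growth factor signalling and in some sarcomas and prostate cancers, was lower. Its brightest probe set (221911_at) read 11.02, 11.22 and 11.17 in the GFP control and 9.94, 9.89 and 9.55 in the arrays labelled GATA3. No array labelled GATA3 reached 10, and the difference was -1.35 (SE 0.12, adjusted p 0.00118), 2.54-fold lower. Without GATA3 replicate 3 it was -1.22 (adjusted p 0.00102).

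Another 3 probe sets of ETV1 were more variable. On 217061_s_at the values were 7.60, 6.95 and 6.79 against 5.92, 5.51 and 6.39, a difference of -1.17 (SE 0.30, adjusted p 0.0408), and this call was lost when any array other than GATA3 replicate 3 was left out (adjusted p 0.0733 to 0.105). Without that array the difference was -1.39 (adjusted p 0.0288). Probe set 206501_x_at read 7.30, 6.07 and 6.69 against 5.69, 5.73 and 5.83, with the control arrays spread over more than 1 log2 unit, and 217053_x_at read 6.20, 5.36 and 5.61 against 5.10, 4.62 and 5.32. The groups did not overlap in either, but the differences of -0.94 and -0.71 did not pass (adjusted p 0.0796 and 0.120), nor did they without GATA3 replicate 3 (-0.98 and -0.87, adjusted p 0.128 and 0.103). The suffix _x_at marks probe sets that can also bind other transcripts. The fifth, 221910_at, stayed at the floor of 2.16 on all arrays.

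ELK3, a ternary complex factor that can repress SRF target genes and is known from blood vessels and migrating cells, was lower on both of its probe sets. On 221773_at it read 12.13, 12.29 and 12.34 in the GFP control and 11.57, 11.63 and 11.54 in the arrays labelled GATA3. Both groups were tight, and the difference of -0.67 (SE 0.06, 1.60-fold lower) had an adjusted p of 0.00140. The dimmer 206127_at read 7.49, 7.21 and 7.37 against 6.53, 6.44 and 5.96, a difference of -1.05 (SE 0.17, adjusted p 0.00965). With GATA3 replicate 3 left out, the differences were -0.66 (adjusted p 0.00536) and -0.87 (adjusted p 0.00582).

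Of the ELF genes, ELF4 was higher, ELF1 was lower on 1 of 2 probe sets, and ELF2 did not pass. ELF4, an activator known from lymphocytes and innate immunity, was the 1 gene of the set that was higher. It read 9.63, 9.56 and 9.68 in the GFP control against 10.13, 10.15 and 9.85 in the arrays labelled GATA3 on 31845_at. Its other probe set, 203490_at, read 8.67, 8.63 and 8.63 against 9.01, 9.00 and 9.27. All 3 arrays labelled GATA3 were above all control arrays in both. The differences were 0.42 (SE 0.10, adjusted p 0.0277) and 0.45 (SE 0.09, adjusted p 0.0173), or 1.34-fold and 1.37-fold higher. GATA3 replicate 3 was the lowest of its group on the first and the highest on the second, and without it the differences were 0.52 (adjusted p 0.00352) and 0.36 (adjusted p 0.00527). Both calls were lost when any 1 control array was left out, at adjusted p-values of 0.0749 to 0.10 and 0.0568 to 0.0678, and that of 31845_at also without GATA3 replicate 1 or 2 (0.0795 and 0.0867).

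ELF1, a factor known in lymphoid and other cells, read 8.62, 8.59 and 8.72 against 8.38, 8.19 and 8.27 on 212418_at. The groups did not overlap, and the difference was -0.36 (SE 0.08, 1.28-fold lower, adjusted p 0.0234). Without GATA3 replicate 3 it was -0.36 (adjusted p 0.0377). The call was lost without any 1 control array (adjusted p 0.0619 to 0.0837) and without GATA3 replicate 2 (0.0738). After median centring, quantile normalization or cyclic loess it was -0.28, -0.28 and -0.26 and no longer passed, with adjusted p-values of 0.0671, 0.0638 and 0.0681. On 212420_at ELF1 read 8.17, 8.18 and 8.07 against 7.82, 7.67 and 6.99, where GATA3 replicate 3 lay well below the other arrays, and the difference of -0.65 did not pass (adjusted p 0.0911). Without that array it was -0.40 and passed (adjusted p 0.0207), and with median centring or quantile normalization it passed as well (adjusted p 0.0299 and 0.0356). With cyclic loess it did not pass (adjusted p 0.0523), and it passed in 4 of 14 alternative fits.

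ELF2, a near relative of ELF1, did not pass on any of its 3 probe sets. On 210361_s_at it read 8.40, 8.21 and 8.47 against 8.21, 8.12 and 7.99, a difference of -0.25 (95% interval from -0.50 to just under 0, adjusted p 0.123). Probe set 203822_s_at read 7.97, 8.08 and 8.03 against 7.91, 7.79 and 7.59 (-0.26, adjusted p 0.115), and 242735_x_at read 7.28, 7.31 and 7.43 against 7.22, 7.25 and 7.25 (-0.10, adjusted p 0.349). In all 3 the arrays labelled GATA3 lay below the control arrays, by little. The differences without GATA3 replicate 3 were -0.19, -0.17 and -0.11, and none passed (adjusted p 0.197, 0.117 and 0.310). Within arrays, ELF4 minus ELF1 was higher by 0.78 in the arrays labelled GATA3 (two-sided exact permutation p = 0.1, 0.15 adjusted over the 3 pairs), and ELF1 minus ELF2 was lower by 0.11 (p = 0.3, 0.30 adjusted).

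**Figure D3:**
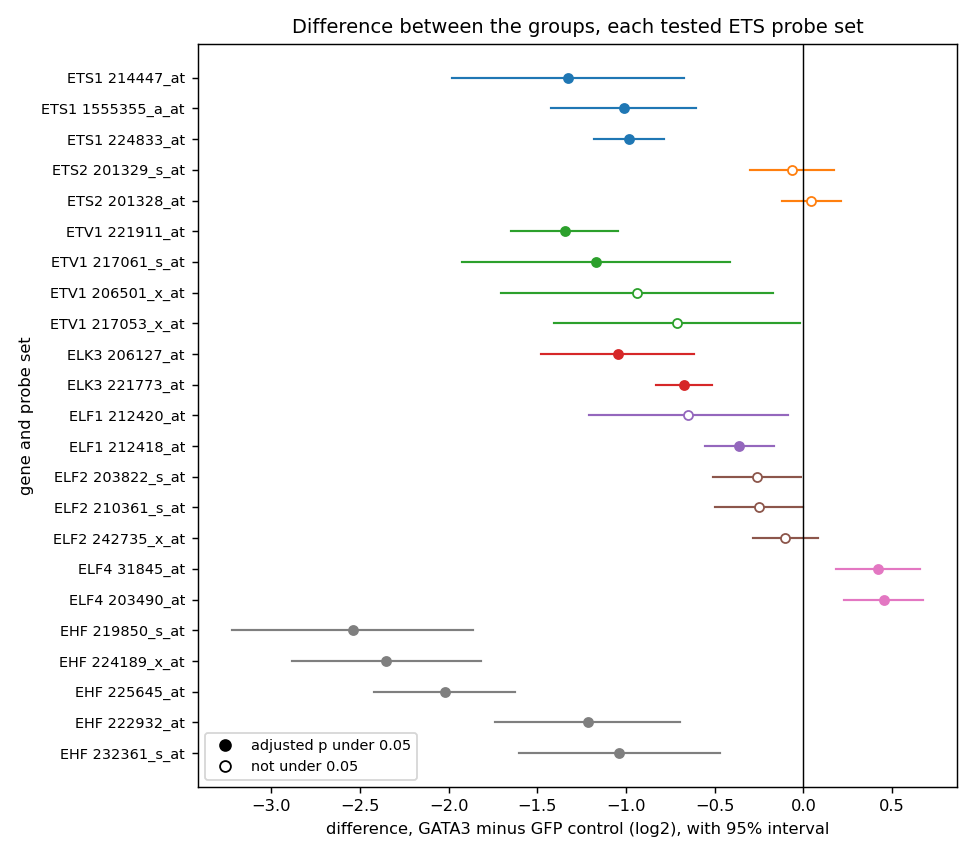
Difference between the groups (log2, GATA3 minus GFP control) for each of the 23 tested ETS probe sets, with its 95% interval, not adjusted for the number of tests. Filled points have an adjusted p under 0.05. The probe sets of a gene lie on the same side of 0, except for the 2 of ETS2, which lie near 0 on either side.

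Of the other genes of the ETS family, 18 in a list, 10 were tested, 3 were lower, 0 higher by limma (0 also at an unadjusted p under 0.05) and 7 did not pass, with a median log2 difference of -0.28, where the median of all tested genes was -0.02 and 14.5% of them were lower and 14.8% higher. These counts were the same without GATA3 replicate 3, at 3 lower and 0 higher. A further 7 (ELF5, ERG, FEV, ETV7, SPI1, SPIB and SPIC) had values of at most 2.30. ETV4, a PEA3-group factor like ETV1, read 9.78, 9.60 and 9.79 in the GFP control and 8.39, 8.47 and 8.01 in the arrays labelled GATA3, 2.70-fold lower (adjusted p 0.00153), and its other probe set had a difference of -1.15 (adjusted p 0.000925). ETV6, a repressor of the family, read 8.85, 9.04 and 9.11 against 7.70, 7.73 and 7.49, 2.57-fold lower (adjusted p 0.000641). Of its 3 other tested probe sets, 2 were lower as well, by -1.15 and -1.26, and 239364_at did not pass (-0.56, adjusted p 0.0756).

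ELK4, a ternary complex factor like ELK3, had a difference of -0.27 (adjusted p 0.0270) on its brightest probe set and -0.64 (adjusted p 0.0202) on 238761_at, while 2 dimmer probe sets did not pass. ETV5, the remaining PEA3-group gene, was chosen for mention after its values were seen, since its probe sets disagreed. It was lower on 203348_s_at (-0.77, adjusted p 0.00369) and 216375_s_at (-1.07, adjusted p 0.000812), but not on 203349_s_at (-0.14, adjusted p 0.573) or 230102_at (-0.01, adjusted p 0.992). ELK1, also named after its values were seen, had differences of 0.00 (adjusted p 0.995) on 203617_x_at and -0.55 (adjusted p 0.0257) on 210376_x_at.

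**Figure D4:**
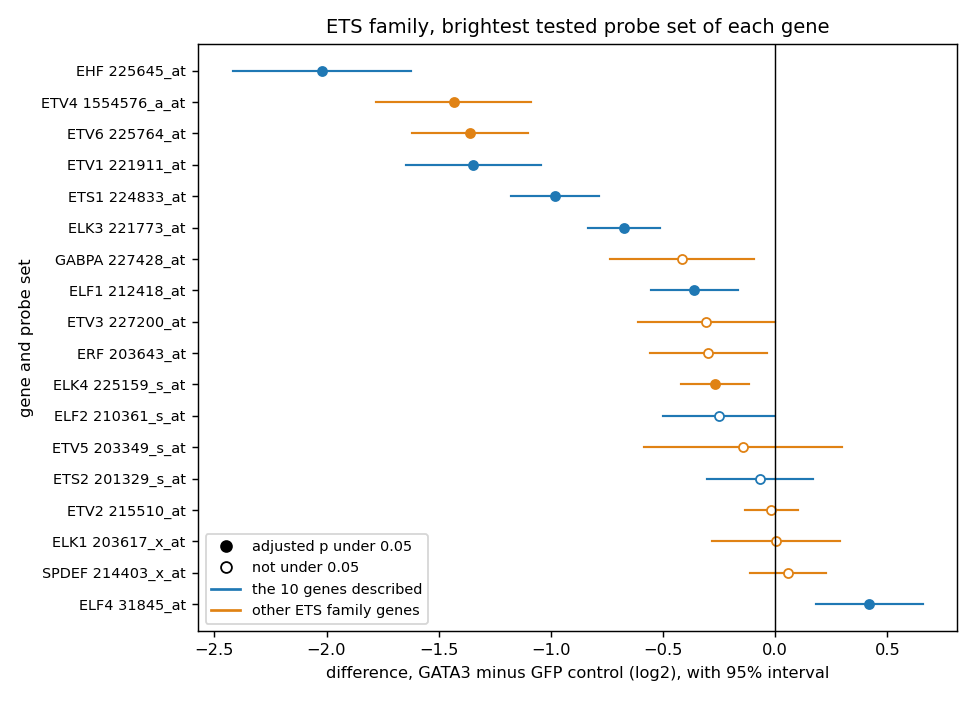
Difference between the groups (log2, GATA3 minus GFP control) with its 95% interval for the brightest tested probe set of 18 ETS family genes, in blue for the 8 tested genes of the set and in orange for 10 others. Filled points have an adjusted p under 0.05. EHF, ETV4, ETV6 and ETV1 lie lowest, between -2.02 and -1.35, and ELF4 is the 1 filled point above 0.

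Genes that act with ETS factors or on them were measured from a list of 22, of which 16 were tested. Of these, 6 were lower, 2 higher and 8 did not pass, with a median difference of -0.20. Of all genes, 14.5% were lower and 14.8% higher, and the 2 higher of 16 are near that share. With GATA3 replicate 3 left out, 5 of the list were lower and 2 higher. DET1, part of the COP1 ubiquitin ligase that is known to degrade PEA3-group and ETS1 and ETS2 proteins, read 7.13 ± 0.23 in the GFP control and 5.54 ± 0.16 in the arrays labelled GATA3 (SD, n = 3 each), or 3.01-fold lower (adjusted p 0.00137). COP1 itself differed by -0.19 (adjusted p 0.224). ID2, an inhibitor of helix-loop-helix factors that is also known to bind ternary complex factors, rose 2.97-fold, from 6.58 ± 0.29 to 8.15 ± 0.43 (SD, n = 3 each, adjusted p 0.00949). GABPB2, a partner subunit of the ETS factor GABPA, was 1.58-fold lower (adjusted p 0.0259), and SP100, a nuclear body protein that binds ETS1, was also 1.58-fold lower (adjusted p 0.0151).

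Of 18 genes known as targets of ETS factors, 13 were tested, 3 were higher, 3 lower and 7 did not pass, with a median difference of 0.03. Of all genes, 14.8% were higher and 14.5% lower, so the counts lie not far above the background in either direction. Leaving GATA3 replicate 3 out gave 3 higher and 4 lower targets. The stromelysin gene MMP3 rose at least 7.39-fold (adjusted p 2.06e-05) from control values under the detection level. It was tested only because the arrays labelled GATA3 were high, so it had to differ, and without it 2 targets were higher. The collagenase gene MMP1 rose 8.04-fold (adjusted p 0.000287). SPRY4 and DUSP6, which dampen ERK signalling, fell 2.52-fold (adjusted p 0.000311) and 2.06-fold (adjusted p 0.00415). The third higher gene was TGFBR2 (0.23, adjusted p 0.0255) and the third lower one PLAU (-0.80, adjusted p 0.00348). The dimmer tested probe set of TGFBR2 did not pass (-0.07, adjusted p 0.579), and the other one of PLAU was lower as well (-1.03, adjusted p 0.000465). FOS, EGR3, MMP13 and ITGA2B had values of at most 2.25 and were not tested. Lower ETS1 and ETV1 values thus stood beside both higher and lower values of listed target genes, and no test links them.

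The RefSeq promoters of the GRCh38.p14 build gave 250 bases before 21 start sites of 8 of the 10 genes. ETS1 and FLI1 had no entry. Both strands were searched for the ETS core CCGGAA and for 4 GATA words, which are AGATAA with its variant AGATAG and TGATAA with its variant TGATAG. Shown are 1 window each of EHF and ETV1, which were lower, ELF4, which was higher, and ETS2, which did not pass, since these hold a match. Capitals mark the matches, and the sequences run 5′ to 3′ on the strand of the gene.
EHF, chr11:34632316-34632565, plus strand: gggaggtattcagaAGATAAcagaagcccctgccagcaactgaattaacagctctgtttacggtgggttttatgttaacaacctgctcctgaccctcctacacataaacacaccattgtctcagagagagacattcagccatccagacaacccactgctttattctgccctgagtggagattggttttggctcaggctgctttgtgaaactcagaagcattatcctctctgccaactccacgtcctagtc
ETV1, chr7:13991426-13991675, minus strand: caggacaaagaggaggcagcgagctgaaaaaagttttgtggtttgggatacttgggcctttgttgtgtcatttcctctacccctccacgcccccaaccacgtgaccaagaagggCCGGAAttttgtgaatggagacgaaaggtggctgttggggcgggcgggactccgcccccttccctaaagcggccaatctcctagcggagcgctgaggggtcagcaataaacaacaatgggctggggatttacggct
ELF4, chrX:130111859-130112108, minus strand: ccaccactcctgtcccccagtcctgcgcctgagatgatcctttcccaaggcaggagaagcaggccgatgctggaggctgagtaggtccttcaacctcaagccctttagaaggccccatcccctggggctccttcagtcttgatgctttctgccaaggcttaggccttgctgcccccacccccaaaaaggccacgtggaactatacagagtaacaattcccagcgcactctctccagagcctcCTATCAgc
ETS2, chr21:38804933-38805182, plus strand: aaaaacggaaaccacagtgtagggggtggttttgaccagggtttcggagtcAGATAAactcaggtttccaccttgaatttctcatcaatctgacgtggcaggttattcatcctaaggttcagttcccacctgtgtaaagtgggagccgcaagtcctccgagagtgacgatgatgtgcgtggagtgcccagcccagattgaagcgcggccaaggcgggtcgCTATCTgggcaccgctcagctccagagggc
In the windows shown, the GATA word of EHF begins 236 bases before the start and that of ELF4 begins 8 bases before it. ETS2 has 1 at 199 bases and another at 30 bases. Another window of ELF4, not shown, held a GATA word at 245 bases before its own start, and the remaining ELF4 window held no match. The other window of EHF, at an upstream start, held no match. ETV1 has the ETS core at 136 bases before this start, and it was the 1 gene with that core, in 3 of its 6 windows, of which 2 overlap and share the match. Over the 21 windows, 3 held the ETS core and 5 a GATA word, against 14.5% and 22.3% of 35116 windows of all genes. The 5 windows belonged to EHF, ELF1, ELF4 and ETS2, which were lower, lower, higher and not past the threshold. No match of one motif overlapped one of the other. A match is a description of these letters and says nothing of binding.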

How the data were processed

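Each of 6 samples of total RNA was biotin-labelled and measured on its own array, per the labels. The authors deposited log2 values, for which the submitters' processing notes name GCRMA; the version and the annotation used are not given in the sources used here. The log2 scale is read from the range of the values, since no header states it. GCRMA leaves undetected probe sets at a floor, 2.16 here, and a repeated value above it can be background. Depth does not apply to arrays, and precision is set by their number.

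Deposited values entered the tests unchanged, and 62 control probe sets were left out. A probe set was tested if over 4 in at least 3 of 6 arrays, whatever their group. The groups were taken from the ectopic expression label. They were compared with limma 3.58.1 in R 4.3.3 (lmFit and eBayes with an intensity trend, no covariates), with Benjamini-Hochberg adjustment over all 23785 tested probe sets and a threshold of 0.05. The code was tested on simulated data. Folds are from differences of mean log2 values; where a whole group lay at or under 4, the fold is a lower bound against 4. A gene in a list is its brightest tested probe set. Symbols came from the platform annotation. In the lists of other ETS genes, of partners and of targets, 1, 5 and 1 genes had no probe set of that single symbol and were not analysed here.

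The 10 genes, the lists and the tests were chosen with earlier results of these data known. All 10 genes are named; of each list, up to 4 genes with the largest difference past the threshold are named. Other genes of the lists (ETV5, ELK1, SPDEF, COP1, TGFBR2, PLAU and the untested ones) were named after their values were seen. Alternatives were other filters, 3 scalings, other variance models, the replicate number as a block, other ways to represent a gene, and each array left out; the lists without GATA3 replicate 3 were added after the data were seen.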

Additional observations from a re-analysis of the deposited data

How the results depend on the processing

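Of the 15 ETS probe sets that passed, 8 passed under every alternative run for them: 3 of EHF (225645_at, 219850_s_at, 224189_x_at), 2 of ETS1 (224833_at, 1555355_a_at), both of ELK3 and 1 of ETV1 (221911_at). For 219850_s_at and 224189_x_at this is no sign of stability, since they were tested only through the control arrays and the stricter filter removed them. The counts without a filter on low values were 0 higher and 8 lower ETS probe sets, 0 higher ETS genes, 1767 lower probe sets in all and 3 lower genes among partners and regulators, with more probe sets adjusted over. With each array left out, higher ETS probe sets numbered 0 to 2 and lower ones 9 to 14, higher ETS genes 0 to 1 and lower ones 4 to 5, and all probe sets 1796 to 3581 higher and 1801 to 3752 lower. Such fits have fewer samples. With array weights, whose fit gave a convergence warning, 5195 probe sets were higher and 6642 lower, and 18 ETS probe sets were lower. The difference of ETS2 201329_s_at changed sign, to 0.011 with median centring, 0.022 with cyclic loess, 0.045 with array weights and 0.024 without GATA3 replicate 3 (range -0.12 to 0.024 with each array left out), never past the threshold; the cause was not tested. No scaling moved the median of all tested probe sets by over 0.1. Without GATA3 replicate 3 the counts of the 3 lists stayed within 1.5 times.

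The replicate number as a block gave 0 higher ETS probe sets, 0 higher ETS genes, 11 lower ETS probe sets and 2106 lower probe sets in all. Deviations of same-numbered arrays correlated at -0.135, 0.159 and -0.109, and 2 of 6 arrays correlated best with their own number, so the numbers were not taken to pair the samples.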
